A study of Mus musculus with 4 samples.

Results

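HuR, the product of Elavl1, and 9 other proteins that bind AU-rich elements in mRNA were followed at the mRNA level in the livers of 4 mice. All 4 are labelled male, in a study that also used females. The 10 genes were chosen by symbol, as Elavl1, Zfp36, Zfp36l1, Zfp36l2, Hnrnpd, Khsrp, Tia1, Tial1, Celf1 and Ybx1, out of 46603 Ensembl genes in the count table, and all 10 passed the filter on low counts. All mice were HuRflox/flox on the C57BL/6 J background, so the control animals carry the floxed alleles as well. Mice 3 and 4, labelled HuR hKO, had received AAV8 carrying Cre recombinase under the thyroxine-binding globulin promoter by tail vein, and control mice 1 and 2 had received AAV8-TBGP-GFP. Every animal had then eaten the WDSW (a Western diet with 42% of its energy from fat and 0.1% cholesterol, plus drinking water with 23.1 g/L fructose and 18.9 g/L glucose) for 4 weeks. The promoter drives Cre in hepatocytes, while the RNA came from whole liver that also holds endothelial, immune and stellate cells. The ages of the mice and the exons flanked by loxP sites are not given in the sources used here.

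AU-rich elements are stretches of A and U, often with the pentamer AUUUA, in the 3′ untranslated region (UTR) of short-lived mRNAs such as those of cytokines, early response transcription factors and growth factors. Proteins that bind them compete for the same mRNAs with opposite outcomes. HuR generally protects a bound mRNA from decay and moves between nucleus and cytoplasm. Tristetraprolin (Zfp36) and its relatives recruit the enzymes that remove the poly(A) tail, KSRP (Khsrp) and AUF1 (Hnrnpd) promote decay of many targets, and TIA1 and TIAR (Tial1) hold mRNAs back from translation. Several of these proteins are known to bind their own mRNAs or each other's.

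The mRNAs of 7 of the 10 binding proteins carry the AU-rich heptamer TATTTAT in their own 3′ UTR, and these sites are shown because this heptamer is the core of the site that the Zfp36 proteins recognise. Each line gives a stretch of 30 bases from the reference mRNA in DNA letters, 5′ to 3′, with every TATTTAT in capitals, and for each gene it is the stretch around a heptamer with the most ATTTA pentamers.
Elavl1: attTATTTATTTATTTATtttTATTTATtt
Zfp36: agtgggcccttTATTTATgacgactttatt
Zfp36l1: ttatcaaaacgTATTTATtgccaaactatg
Zfp36l2: actatttaactTATTTATtatcttgtgaaa
Tia1: cagatacaatgTATTTATttaaaagattca
Tial1: gaaaatgaaaaTATTTATtttaaaaattga
Celf1: ggggtggagaaTATTTATtacctaaattat
In GRCm38 these stretches lie at chr8:4285775-4285804 on the minus strand (Elavl1), chr7:28376965-28376994 on the minus strand (Zfp36), chr12:80108421-80108450 on the minus strand (Zfp36l1), chr17:84184913-84184942 on the minus strand (Zfp36l2), chr6:86430467-86430496 on the plus strand (Tia1), chr7:128442422-128442451 on the minus strand (Tial1) and chr2:91015315-91015344 on the plus strand (Celf1).

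By number, the 3′ UTR of Elavl1 held the most of these motifs among the 10. Within 4218 bases it held 17 ATTTA pentamers and 8 TATTTAT heptamers, some of which overlap, and 8 copies of the nonamer TTATTTATT, which contains both shorter motifs. Of 859 tested genes with a 3′ UTR of 0.8 to 1.25 times that length, 3.38% had as many pentamers and 16.3% had any nonamer. Per length, Zfp36l1 was above Elavl1, at 4.90 pentamers against 4.03 in 1000 bases, and its 1835 bases held 9 pentamers and 3 heptamers. As many pentamers were found in 3.86% of the genes of a length like that of Zfp36l1. Zfp36 and Zfp36l2 each had 3 heptamers, with 3 and 5 pentamers. At the other end, Ybx1 had no pentamer in its 418 bases, Khsrp had 1 in 1642 bases, and Hnrnpd had 10 in 5429 bases but no heptamer. Celf1 also had 10, in 6132 bases, with 1 heptamer. Over the whole set, 7 of 10 held a heptamer, against 27.6% of the 11606 tested genes with a 3′ UTR, whose median length of 986 bases was below the 2296 of the 10. Among genes of like length, the share with a heptamer was between 11.5% (Ybx1) and 67.7% (Celf1). It was 53.2% for Tia1 and 49.7% for Tial1, which like Celf1 had 1 heptamer each. The nonamer was present in 4 of 10, namely Elavl1 and the Zfp36 genes, against 7.01% of all. Among genes of a length like these 4 it was present in 4.75% (Zfp36) to 16.3% (Elavl1). Only the mRNA strand was searched, and a match is a string of letters and not a measured binding site.

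**Figure D1:**
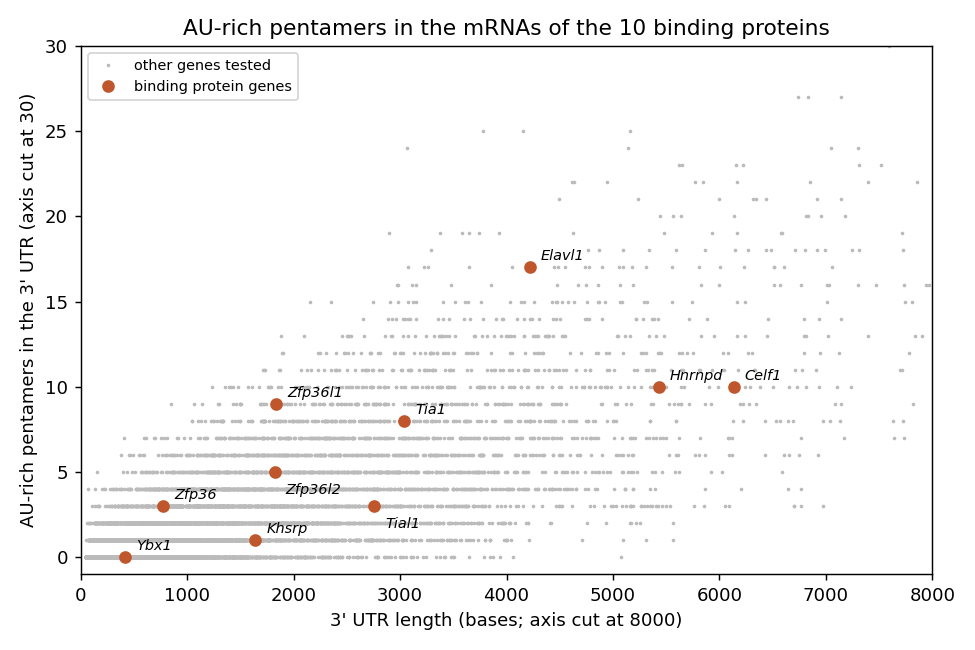
AU-rich pentamers (ATTTA in the DNA letters of the reference mRNA) in the 3′ UTR of each gene, against the length of that UTR in bases. The orange points are the 10 binding protein genes, with Elavl1 highest at 17 pentamers, and the grey points are 11521 other tested genes, with 75 more outside the axes.

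As the deleted gene, Elavl1 was examined first. It lies on chromosome 8 from 4285382 to 4325413 on the minus strand. Its counts were 377 and 347 in control mice 1 and 2, and 541 and 648 in mice 3 and 4. Scaled for library size in CPM, the usual counts-per-library-total unit, with TMM factors, these were 28.4 and 25.9 CPM in the controls and 37.7 and 34.4 CPM in the libraries labelled HuR hKO. Mice 3 and 4 were thus higher than either control mouse, in the direction opposite to a loss of Elavl1 mRNA. The mean was 27.1 ± 1.74 CPM (SD, n = 2) in the control and 36.1 ± 2.36 CPM (SD, n = 2) in the labelled HuR hKO libraries. The fold was 1.33, with a 95% interval of 1.07 to 1.65, or 0.41 ± 0.135 (standard error) on the log2 scale, with an adjusted p of 0.545 by edgeR's quasi-likelihood test (Benjamini-Hochberg adjustment over 13001 genes). As many as 380 genes had a p-value this small or smaller, and the difference does not pass the adjustment.

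The Elavl1 fitted level stayed higher in the libraries labelled HuR hKO with each mouse left out, at a log2 fold change of 0.33 to 0.48. Without control mouse 2 its 95% interval was -0.04 to 0.73, and without mouse 3 it was -0.11 to 0.76, so with either of these mice left out no change was within the interval and the unadjusted p-value was not under 0.05. The counts cover the whole gene, and reads from exons outside the deleted part cannot be told from the others. The 5′ end of Elavl1 overlaps Ccl25 on the opposite strand by 204 exonic bases, and no source says that strand was used in counting. Ccl25 had 46 and 57 counts in the controls and 33 and 50 in the others. Whether reads of Ccl25 entered the Elavl1 counts was not tested. In whole liver RNA, fewer cells of a type and less RNA per cell cannot be told apart. Whole-gene counts of Elavl1 were not lower where the label says it is deleted. Such counts cannot check the deletion, and every direction given here follows the labels. The study also examined the deletion by other assays, which are not analysed here.

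The other members of the ELAV family were at or near 0. Elavl2 and Elavl4, the neuronal relatives of HuR, had 0 counts in all 4 libraries, which allows a level of up to 0.152 to 0.23 CPM, and Elavl3 had 1 count, in mouse 3. Reads of Elavl1 itself were therefore the only ELAV reads counted above this limit in these livers.

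**Figure D2:**
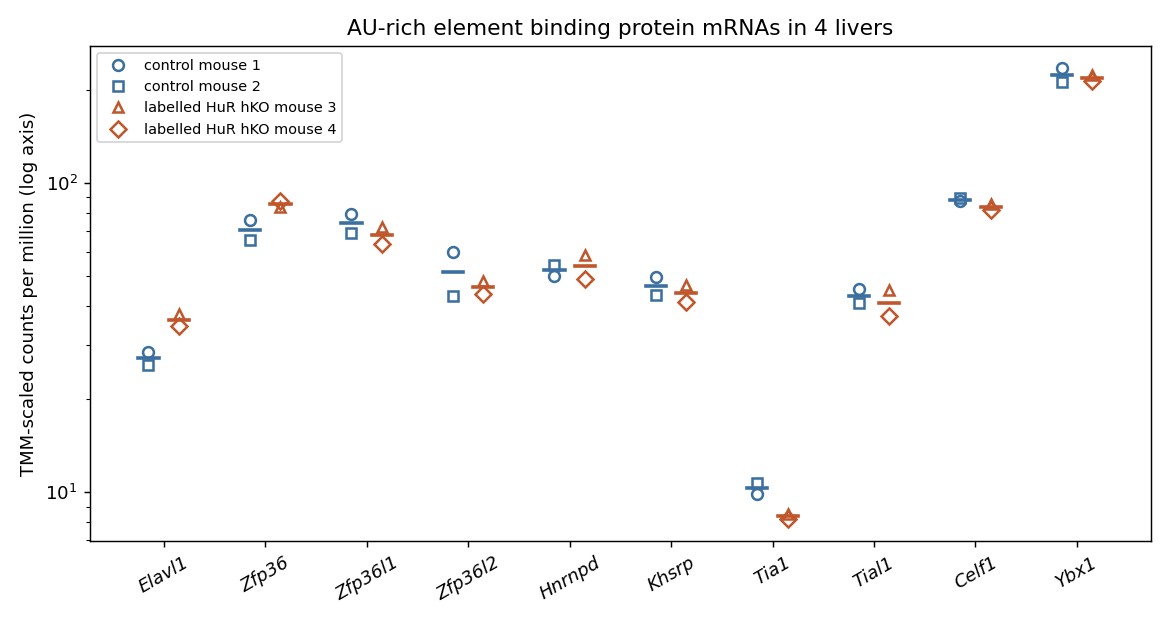
Level of each binding protein mRNA in each of the 4 livers, in TMM-scaled CPM on a log axis. Symbols are single mice and bars are group means; the Elavl1 and Zfp36 symbols of mice 3 and 4 sit above both control mice, those of Tia1 and Celf1 below, and the other 6 genes overlap.

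Among the 10 genes, Elavl1 alone had an unadjusted p-value under 0.05, where 7.43% of all genes tested did. Counted by direction, 1 of 10 was higher (4.04% of all genes) and 0 of 10 lower (3.39%; 0 also by DESeq2). By the adjusted p-value 0 of 10 passed with edgeR's quasi-likelihood test (0.0231% of all genes) and 0 with DESeq2, in which Elavl1 was again the only gene of the 10 with an unadjusted p-value under 0.05. The study's own rule of a fold of at least 1.8 with an unadjusted p-value under 0.05 was met by 0 of 10, against 2.12% of all genes. The groups did not overlap for 4 of the 10, namely Elavl1 and Zfp36 above (19.3% of all genes) and Tia1 and Celf1 below (18.8%), and this was so for 38.1% of all genes. After TMM scaling 3 of the 10 lay above 0 (50.3% of all genes) and 7 below, with a median log2 fold change of -0.08, whereas without any scaling all 10 lay above 0, with a median of 0.23 that was below the 0.31 of all genes in that setting.

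The Zfp36 family encodes zinc finger proteins that bind UAUUUAU and recruit the deadenylase complex. Zfp36, the gene of tristetraprolin, is itself induced early by inflammatory and growth signals and lies on chromosome 7 from 28376784 to 28380253. Its level was 75.7 and 65.6 CPM in the controls, and 83.5 and 87.3 CPM in the libraries labelled HuR hKO. Both of the latter were above both controls, but the gap was smaller than that between the control mice. The estimate on the log2 scale was 0.27 with a 95% interval of -0.03 to 0.58, and edgeR gave it an adjusted p of 0.684.

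Its relatives Zfp36l1 and Zfp36l2, which share the zinc fingers and the decay function, had estimates below 0, with intervals that overlap that of Zfp36. Zfp36l1 was at 79.2 and 68.9 CPM in the controls and 72.1 and 63.4 CPM in those labelled HuR hKO, and Zfp36l2 was at 59.9 and 43.1 CPM against 48.3 and 43.7 CPM. For both genes the groups overlapped, and the control mice differed from each other more for Zfp36l2 than for any other member on the log scale. The log2 fold changes were -0.13 (95% interval -0.45 to 0.19) and -0.16 (-0.56 to 0.24), and Zfp36l2 turned to 0.0827 without control mouse 1. A ratio of counts within a library does not depend on scaling. The log2 ratio of Zfp36 to Zfp36l1 was -0.07 in each control library, and 0.21 in mouse 3 and 0.46 in mouse 4, so mice 3 and 4 were above both controls. For Zfp36 to Zfp36l2 it was 0.34 and 0.61 in the controls and 0.79 and 1.00 in the others, again without overlap. Both ratios share the Zfp36 counts, and how often such ratios lie apart over all genes was not computed. For single genes after scaling, the groups did not overlap in 38.1% of all genes tested. The ratio of Zfp36l1 to Zfp36l2 overlapped between the groups, with means of 0.54 and 0.56. The choice of these pairs followed a look at their values, and no test was run on them (the smallest p of an exact two-sided permutation with 2 against 2 mice is 0.333).

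Hnrnpd and Khsrp encode AUF1 and KSRP, which both promote the decay of many AU-rich mRNAs. Hnrnpd was at 50.2 and 54.1 CPM in the controls and 58.7 and 48.9 CPM in the libraries labelled HuR hKO, where mouse 3 was the highest and mouse 4 the lowest of the 4. Khsrp was at 49.7 and 43.4 CPM against 46.8 and 41.4 CPM, with the groups interleaved. The log2 fold changes were 0.04 (95% interval -0.28 to 0.37) for Hnrnpd and -0.08 (-0.40 to 0.24) for Khsrp. Neither had a direction that held with every mouse left out in turn.

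Tia1 and Tial1 encode the related translational silencers TIA1 and TIAR, which gather in stress granules. Tia1 was the scarcest of the 10 genes, where the control mice had 131 and 144 counts and mice 3 and 4 had 122 and 155. Once scaled, it was at 9.86 and 10.8 CPM in the controls and at 8.51 and 8.23 CPM in the others, so mice 3 and 4 were below both controls. Its log2 fold change of -0.30 had a 95% interval of -0.71 to 0.11 and an adjusted p of 0.746 by edgeR, and without scaling it was 0.0104. Tial1 was at 45.5 and 40.9 CPM in the controls and at 45.0 and 37.1 CPM in those labelled HuR hKO, and its groups overlapped (log2 fold change -0.08, 95% interval -0.42 to 0.27). The log2 ratio of Tia1 to Tial1 within a library, free of scaling, was -2.20 and -1.93 in the control and -2.40 and -2.17 in the labelled HuR hKO libraries, and these overlapped.

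Celf1 encodes a protein of GU-rich elements that also promotes deadenylation, and Ybx1 encodes the abundant Y-box protein that packages cytoplasmic mRNA. Celf1 was at 87.2 and 89.6 CPM in the controls and 85.3 and 82.1 CPM in the libraries labelled HuR hKO, so the groups lay apart by less than 2 CPM at their nearest mice. Ybx1 was at 234.4 and 212.1 CPM in the controls and 223.0 and 213.4 CPM in the others, with both of the latter inside the range of the controls. The log2 fold changes were -0.08 (95% interval -0.36 to 0.20) and -0.03 (-0.34 to 0.27). Of the 50-base words in the Ybx1 mRNA, 25.1% also occur in other annotated genes, mainly the pseudogenes Gm11560 and Ybx1-ps2, which had between 7 and 15 and between 2 and 5 counts in a library. For Zfp36l1 the share was 56.9%, mostly through Gm26669 on the opposite strand, which had between 7 and 19 counts, and for the other 8 genes it was between 0 and 6.87%.

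**Figure D3:**
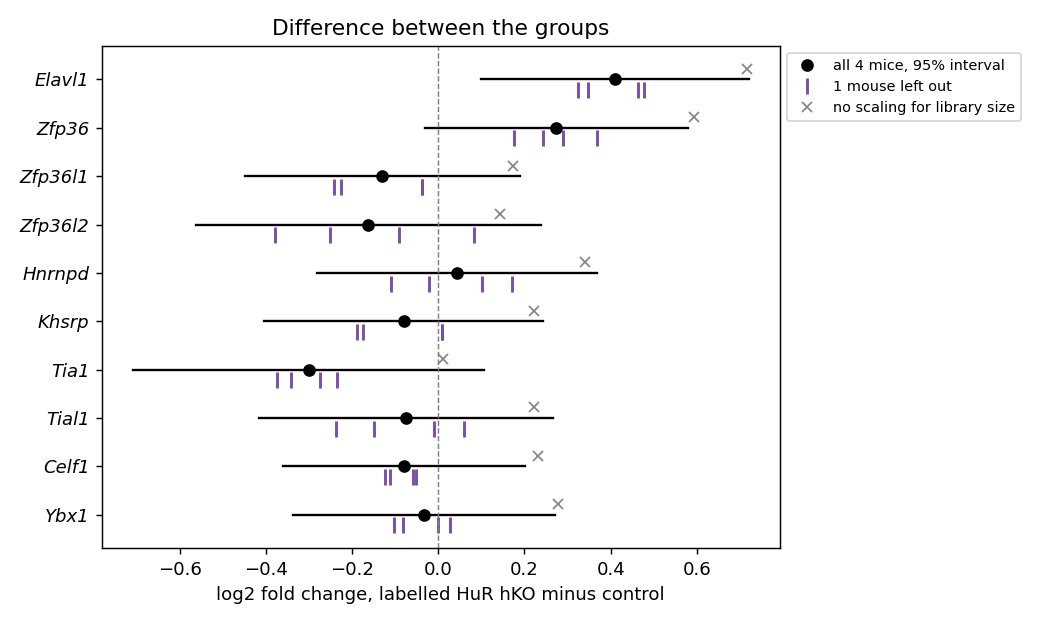
Log2 fold change of each binding protein mRNA, libraries labelled HuR hKO minus control libraries. Black points and lines are the estimate from all 4 mice and its 95% interval, purple ticks the values with 1 mouse left out, and grey crosses the values without scaling for library size, which lie about 0.3 to the right for every gene; the scaled interval lies above 0 only for Elavl1.

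Compared within a library, Elavl1 stood higher relative to the other binding proteins in mice 3 and 4. Its counts exceeded the control ratio to Zfp36l1 by 0.54 on the log2 scale, to Zfp36l2 by 0.55, to Khsrp, Tial1 and Celf1 by 0.49 each, to Ybx1 by 0.44, to Hnrnpd by 0.37 and to Tia1 by 0.71. For these 8 of the 9 ratios mice 3 and 4 both lay higher than either control mouse. The exception was Zfp36, with log2 ratios of -1.42 and -1.34 in the control and -1.15 and -1.34 in the labelled HuR hKO libraries, so mouse 4 lay within the control range. The 9 ratios share the Elavl1 counts, are not independent of each other and do not count as separate results. How often such ratios lie apart over all genes was not computed. For single genes after scaling, mice 3 and 4 lay above both controls in 19.3% of all genes tested.

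**Figure D4:**
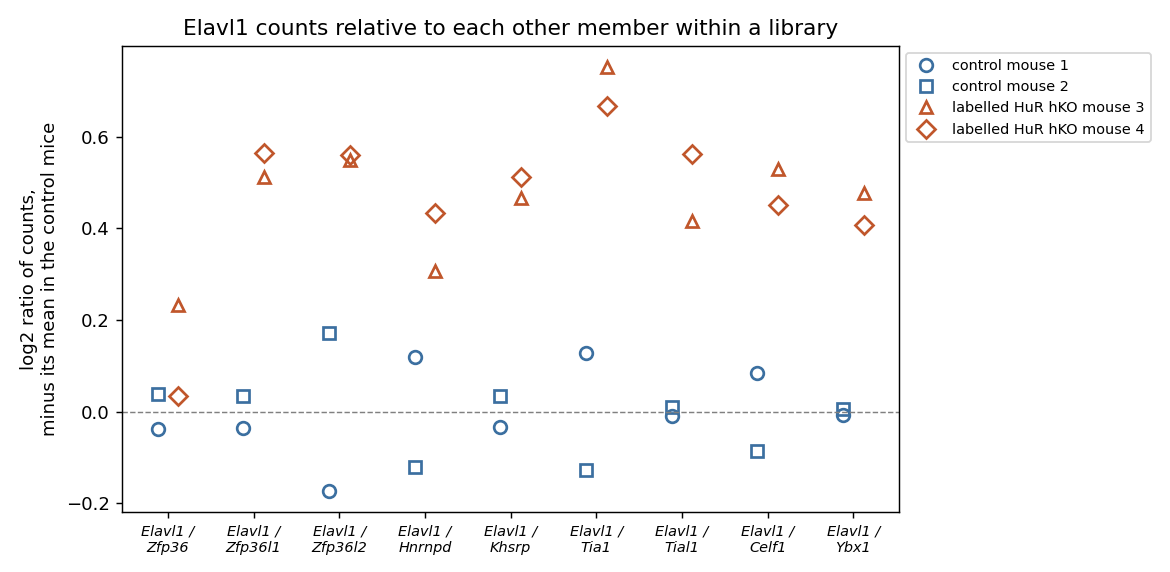
Log2 ratio of Elavl1 counts to the counts of each of the 9 other genes within a library, with the mean of the control libraries set to 0. Symbols are single mice; the ratios of mice 3 and 4 lie above those of both control mice for every gene but Zfp36, where mouse 4 does not.

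Levels were compared between genes per length, in TPM (counts per base of gene length, scaled to the same total in every library) on the merged exon length of each gene. Ybx1 was the most abundant at 195.0 ± 24.3 TPM (SD, n = 2) in the control libraries, and it held between 46.5% and 47.9% of the summed TPM of the 10 genes in a library. Zfp36l1 (54.8 ± 8.36 TPM), Zfp36 (45.0 ± 7.002 TPM) and Zfp36l2 (32.4 ± 9.18 TPM) came next, so the decay-promoting family together exceeded all but Ybx1. Khsrp (23.8 ± 3.59 TPM), Celf1 (23.1 ± 0.815 TPM), Hnrnpd (15.6 ± 0.0143 TPM) and Tial1 (13.8 ± 1.77 TPM) followed. Elavl1 was the ninth of 10 at 5.79 ± 0.684 TPM in the control libraries, above Tia1 at 1.44 ± 0.0101 TPM. The neighbours Zfp36l1 and Zfp36, Zfp36l2 and Khsrp, and Khsrp and Celf1 overlapped between the control mice, as did Hnrnpd and Tial1 over all 4 mice. With the length of the coding transcript in place of the merged exons, an order chosen after seeing the data, Elavl1 stayed ninth and Zfp36 and Zfp36l1, like Tial1 and Hnrnpd, changed places. As a share of the summed TPM of the 10 genes, Elavl1 was 1.39% and 1.43% in the controls and 1.92% and 1.86% in the libraries labelled HuR hKO. Shares were computed on merged exons only, 10363 bases for Elavl1 where its coding transcript has 5743, and they depend on that choice.

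The remaining genes of the pathway were taken from lists of its parts. Of 23 further AU-rich element binding proteins and relatives of the 10, 19 were tested and 0 had an unadjusted p-value under 0.05 by edgeR, with 9 above 0, 10 below and a median log2 fold change of -0.03 (0.00 over all genes). The largest was that of Zc3h12c, a relative of the RNase regnase-1, with 45 and 37 counts in mice 1 and 2 and 71 and 77 in mice 3 and 4 (log2 fold change 0.55, adjusted p = 0.696 from edgeR). The lists for decapping and 5′ decay (18 tested, 9 above 0, median -0.01) and stress granules (14 tested, 6 above 0, median -0.04) likewise had 0 genes with an unadjusted p-value under 0.05 by edgeR, and the smallest p-values in them belonged to Lsm7 (log2 fold change 0.47) and Fxr1 (0.18). The RNA exosome, which degrades deadenylated mRNA from its 3′ end, had 12 of 15 genes above 0 (50.3% of all genes) and a median of 0.15. It had 0 genes with an unadjusted p-value under 0.05 by edgeR, where 7.43% of all genes did. The smallest p-value in this list was that of Exosc5 (log2 fold change 0.32, standard error 0.186). By the DESeq2 Wald test, too, 0 genes of these 4 lists had an unadjusted p-value under 0.05.

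Of 20 deadenylation genes, 1 was higher and 1 lower at an unadjusted p-value under 0.05 (7.43% of all genes were one or the other), and their median was -0.02. Btg2, an antiproliferative partner of the deadenylase, had 94 and 119 counts in mice 1 and 2 and 149 and 246 in mice 3 and 4 (log2 fold change 0.56, adjusted p = 0.58 from edgeR). Cnot6l, a catalytic subunit of the CCR4-NOT deadenylase, was at 46.6 ± 4.45 CPM in the control and 36.8 ± 1.66 CPM in the labelled HuR hKO libraries (log2 fold change -0.34, adjusted p = 0.633 from edgeR, SD, n = 2 each).

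Among 26 genes of kinases, adaptors and nuclear transport factors that act on HuR or tristetraprolin, 1 was higher and 2 lower at an unadjusted p-value under 0.05 (4.04% and 3.39% of all genes were), with 18 above 0 (50.3% of all genes) and a median of 0.05. The 3 are 11.5% of the list, beside 7.43% of all genes. This list was chosen with earlier results of these data known, so the share is no test. Tnpo2 encodes transportin 2, an import receptor that carries HuR into the nucleus, and lies on chromosome 8 from 85036915 to 85057583 on the plus strand. Its counts were 469 and 442 in mice 1 and 2, and 254 and 250 in mice 3 and 4. Its level was 34.1 ± 1.62 CPM in the control and 15.5 ± 3.14 CPM in the labelled HuR hKO libraries (SD, n = 2 each). On the log2 scale the difference was -1.15 with a standard error of 0.168, and edgeR gave an adjusted p of 0.092. Mice 3 and 4 were far below both controls, also before scaling. The adjusted p was 0.000405 by the DESeq2 Wald test and lay between 0.000262 and 0.501 over the 9 alternatives, while the unadjusted p was at most 0.00228 in any of them. Its closest relative Tnpo1, also an import receptor of HuR, had 946 and 794 counts in mice 1 and 2 and 1010 and 1236 in mice 3 and 4 (log2 fold change 0.06). Tnpo2 overlaps A230103J11Rik on the opposite strand, which had between 6 and 10 counts in a library.

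Ywhaz encodes an adaptor of the family that holds phosphorylated tristetraprolin in the cytoplasm. It was at 99.99 ± 0.0342 CPM in the control and 68.1 ± 6.21 CPM in the labelled HuR hKO libraries (SD, n = 2 each). This was -0.55 on the log2 scale, with an adjusted p of 0.315 by edgeR. The 5 other adaptors of this family on the list had log2 fold changes between -0.13 (Ywhag) and 0.14 (Ywhah), with adjusted p-values from edgeR of 0.85 to 0.994. Mapk14 and Mapkapk2, the p38 and MK2 kinases that inactivate tristetraprolin, had log2 fold changes of 0.05 each.

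The classic mRNAs with AU-rich elements were the list with most genes past the unadjusted threshold. Of 32 genes, 24 were tested, and 6 of these (25.0%, against 7.43% of all genes) had an unadjusted p-value under 0.05, 5 higher and 1 lower, with 0 past the adjustment by edgeR. The list did not move as a whole, with 11 above 0, 13 below and a median of -0.07. This list, too, was chosen with earlier results of these data known, so its share beside that of all genes is no test. Cdkn1a, the cell cycle inhibitor p21, was at 5.62 ± 0.18 CPM in the control and 11.9 ± 2.79 CPM in the labelled HuR hKO libraries (log2 fold change 1.08, adjusted p = 0.207 from edgeR). The early response gene Junb (0.42), the hepatokine gene Fgf21 (1.10) and the chemokine gene Cxcl1 (0.67) were also higher, and Cyp7a1, the rate-limiting enzyme of bile acid synthesis, was lower (-0.59). The number fell to 2 without mouse 3 and to 3 without mouse 4 or by DESeq2. Tnf, Il6, Cxcl2, Ccl2, Ccl3, Ptgs2, Csf2 and Csf3, the cytokine genes and the cyclooxygenase gene that define this class of mRNA, had at most 11 counts in a library and were not tested.

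**Figure D5:**
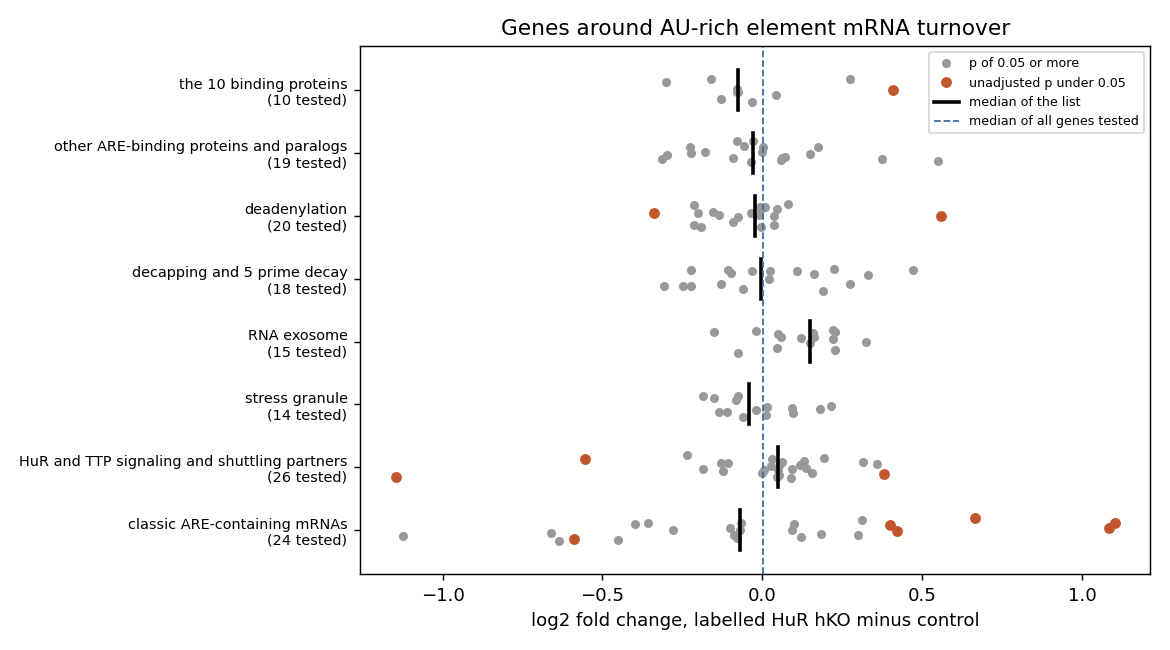
Log2 fold changes, libraries labelled HuR hKO minus control libraries, of the 10 binding protein genes and of 7 lists around them. Each point is a gene, orange at an unadjusted p-value under 0.05, the black bar is the median of the list and the dashed line that of all genes tested; the point farthest to the left is Tnpo2 at -1.15.

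By a fixed measure, the genes with the profile nearest to that of Elavl1 over the 4 mice were Junb, Nhlrc2, Rd3, Leng1 and Ppil1. The measure was the Euclidean distance between log2 CPM profiles centred on their mean, which lay between 0.0456 and 0.0674 for these 5 among 11160 genes compared. Junb, the nearest, had 200 and 192 counts in mice 1 and 2 and 297 and 351 in mice 3 and 4. It overlaps Prdx2 on the opposite strand by 173 exonic bases. Prdx2 had 1522 and 1942 counts in mice 1 and 2 and 2071 and 3083 in mice 3 and 4. Whether reads of Prdx2 entered the Junb counts was not tested. With 4 libraries, such a list describes a shape only.

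The libraries held between 13032095 and 19715577 counts, with the largest in mouse 4, and no pair of them was as alike as repeat sampling of 1 library would be. Hepatocyte markers dominated as the tissue label says, with a summed level of 66912 to 68497 CPM in the control and 64149 to 73674 CPM in the labelled HuR hKO libraries. Several markers of other liver cells lay in the same direction as Elavl1. Over all genes tested, 50.3% lay above 0 and 7.43% had an unadjusted p-value under 0.05 by edgeR. Of the Kupffer cell and macrophage markers 8 of 11 lay above 0, with a summed level of 258.4 to 265.3 CPM in the control and 279.5 to 296.1 CPM in the labelled HuR hKO libraries. Marco (log2 fold change -0.92), Adgre1 (-0.20) and Csf1r (-0.01) lay below 0, and 0 of the 11 had an unadjusted p-value under 0.05 by edgeR. Of the endothelial markers 9 of 10 lay above 0, at 238.3 to 273.9 CPM against 272.4 to 311.8 CPM, which overlap. Of the stellate cell markers 8 of 10 did, at 203.6 to 216.3 CPM against 217.4 to 280.4 CPM, with Col3a1 and Col1a1 at an unadjusted p-value under 0.05. Mouse 4 was the highest for both, with 447 and 843 Col3a1 counts and 170 and 352 Col1a1 counts in mice 3 and 4. Acta2 (log2 fold change -0.83) and Des (-0.30) lay below 0. The erythroid markers tested, 4 of 4, lay above 0, at 275.4 to 329.0 CPM against 370.1 to 530.1 CPM, with Hbb-bs, Hbb-bt and Alas2 at an unadjusted p-value under 0.05. The summed levels overlapped for monocytes and neutrophils (27.5 to 35.2 CPM against 34.1 to 40.8 CPM) and T and NK cells (5.72 to 8.14 against 6.21 to 6.77). They also overlapped for B cells (4.14 to 32.5 against 19.7 to 22.03) and cholangiocytes (28.1 to 56.3 against 40.5 to 50.8). Of the 5 cholangiocyte markers tested, 2 lay above 0 and 3 below. Spp1 was higher (log2 fold change 0.51) at an unadjusted p-value under 0.05 by edgeR. Krt19 was lower (-2.38), with 162 and 5 counts in mice 1 and 2 and 7 and 34 in mice 3 and 4. Among these lists the neutrophil markers Mpo and Retnlg had at most 2 counts in a library. The part of these cells in the Elavl1 level was not tested.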

How the data were processed

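Total liver RNA was sequenced from 4 mice, 2 labelled control and 2 labelled HuR hKO. The authors deposited the reads of each mouse as whole-number counts per Ensembl gene, without normalization. The submitters' processing notes name RSEM and GRCm38; RSEM estimates counts, so the values may have been rounded. The aligner, the annotation and the use of strand are not given in the sources used here, so the counts of overlapping genes and of near copies are uncertain. Of 46603 identifiers, 46005 had a symbol, and 0 columns were left without a mouse.

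Counts were filtered with filterByExpr (minimum 10, total 15), scaled with TMM factors (0.957 to 1.04) and tested with the quasi-likelihood test of edgeR 4.0.16 (R 4.3.3), with Benjamini-Hochberg adjustment over 13001 genes. Intervals are 95% intervals from that fit. Motifs, lengths and coordinates are from the GENCODE M21 mRNA with the longest coding sequence of each gene (GRCm38). Nothing states that mice came from separate litters, so p-values measure only the spread between these samples. For each gene, edgeR's test and its intervals take that spread partly from the other genes. The median of all log2 fold changes was 0.00 after TMM scaling and 0.31 without scaling. Tables and figures were made with python 3.11.15, pandas 2.3.3 and matplotlib 3.10.9.

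The genes and lists were chosen with earlier results of these data known. The genes named are the 10 binding proteins, up to 6 genes a list with an unadjusted p-value under 0.05 or else the gene with the smallest p, the genes that overlap them, and the 5 nearest to Elavl1. Some genes that this rule names are not reported here, though they count in the totals of their lists. Elavl2 to Elavl4, Tnpo1, Mapk14, Mapkapk2, Ywhag, Ywhah, Krt19, Acta2, Des, pseudogenes, markers at or near 0 and the low cytokine genes were named after their values were seen. So were Adgre1, Marco and Csf1r. The alternatives were DESeq2's size factors, no scaling, no filter, at least 10 counts in every sample, the DESeq2 1.42.0 Wald test and leaving out each mouse. Genes with 3 counts or fewer are read as at most 3 counts, and such limits cover counting error only.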

Additional observations from a re-analysis of the deposited data

How the results depend on the processing

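The Elavl1 log2 fold change kept its direction in all 9 alternatives, from 0.33 to 0.48 with 1 mouse left out and up to 0.72 without scaling, and 0 of the 10 binding protein genes passed the adjusted threshold in any of them. Without scaling, Zfp36l1 (0.17), Zfp36l2 (0.14), Khsrp (0.22), Tia1 (0.0104), Tial1 (0.22), Celf1 (0.23) and Ybx1 (0.28) turned above 0, in a setting that moved the median of all genes to 0.31. With 1 mouse left out, Zfp36l2 ranged from -0.38 to 0.0827, Hnrnpd from -0.11 to 0.17, Khsrp from -0.19 to 0.0097, Tial1 from -0.24 to 0.0602 and Ybx1 from -0.10 to 0.0282. The sign changed without control mouse 1 for Zfp36l2, Hnrnpd, Khsrp and Ybx1, without mouse 3 for Hnrnpd, and without mouse 4 for Khsrp and Tial1. With 1 mouse left out, the number of the 10 with an unadjusted p-value under 0.05 was 0 to 1. It was 0 without mouse 3, and without control mouse 2 it was Zfp36l2 (-0.38) in place of Elavl1. The number over all genes was 566 to 1449 with 1 mouse left out, 1466 without a filter on low counts and 575 by the DESeq2 Wald test. With 1 mouse left out, the numbers were 0 to 1 for other binding proteins, 0 to 2 for deadenylation, 0 to 1 for decapping, 0 to 3 for the exosome and 2 to 6 for the classic mRNAs. Without scaling they were 1 for other binding proteins, 1 for deadenylation, 1 for decapping and 3 for the exosome, without a filter 1 for decapping, and by DESeq2 0 for deadenylation and 3 for the classic mRNAs. The cause of these shifts was not tested. With a mouse left out, the lone mouse of its group is assumed to vary like the other group. No paired analysis was possible because the groups share no mouse number. Tia1, with at most 155 counts in a library, is the gene of the 10 that depth limits most.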
